A study of Mus musculus with 12 samples.

Results

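The levels of 10 genes, of 24079 in the deposited count table, were followed in ribosome-bound RNA of the hippocampus of wild-type and Fmr1-/y mice. They were taken by symbol, and all 10 were found. Gfap, Aqp4, Slc1a2, Slc1a3, Aldh1l1, Aldoc, Gja1 and Gjb6 are textbook astrocyte genes and served as the reference. Slc7a10 and Itih3 were added because their levels differed between the genotypes in these same counts, so their genotype difference is given as a description with no p-value. Whether they went along with the astrocyte genes from library to library was not part of that choice, and was tested.

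Each of the 12 libraries, 6 per genotype, came from a pool of 4 to 6 adult C57BL/6J mice, 2 to 6 months old. All animals carried Wfs1-CreERT2 and the RiboTag allele of Rpl22, and received tamoxifen on 3 days 1 week before the tissue was taken. In this line the Cre recombinase, driven by the Wfs1 promoter, places the hemagglutinin (HA) epitope on the ribosomal protein Rpl22 of CA1 pyramidal neurons, and HA-tagged ribosomes are pulled down from whole hippocampus with the mRNAs they carry. The groups were Fmr1-/y males, which lack the fragile X protein FMRP, and wild-type males. The Cre line is a model of CA1 pyramidal neurons and not of astrocytes, so the reference genes are markers of a cell type that the pulldown was meant to leave out.

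Astrocytes clear glutamate and potassium from the space around synapses, hold water channels at their endfeet on blood vessels, and are joined into networks by gap junctions. They also make L-serine, which neurons convert to the co-agonist D-serine. Because each library is a bulk sample, fewer cells of a type and less RNA per cell cannot be told apart. A level in the pulldown can come from tagged ribosomes or from RNA that was carried over, which was not tested here. For this Cre line the paper reported no HA in astrocytes (GFAP) by immunofluorescence. It also reported by qRT-PCR that Gfap was de-enriched in the pulldown against the RNA from before it. No RNA from before the pulldown was analysed here.

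The libraries held 39400980 to 65565479 reads on genes. For Fmr1, the wild-type libraries held 1971 to 2608 reads and the Fmr1-/y libraries 0 or 1. The labelled cell type was present: the 8 CA1 pyramidal markers summed to 8689 to 10780 CPM (counts scaled to a common library size by edgeR's TMM method) in wild-type libraries, and the 8 reference astrocyte genes to 2407 to 2918 CPM. Fmr1-/y replicate 1 was the highest Fmr1-/y library for all 10 members, at 3983 CPM for the summed reference genes with replicate 2 next at 3691 CPM, and it was also highest of all libraries for the summed choroid plexus markers, at 17660 CPM. Values without it are given beside some of the results. Wild-type replicate 5 was the lowest wild-type library for 8 of the 10 members.

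Per kilobase of exon, the members spanned a wide range of levels. In wild-type libraries Aldoc, the aldolase of the astrocyte, stood at 230.3 ± 32.5 CPM per kilobase (SD, n = 6), and Slc1a2, the main glutamate transporter of the forebrain, at 102 ± 5.41 CPM per kilobase. Their ranges over libraries did not meet. Gfap at 56.9 ± 5.94, Gja1 at 56.8 ± 4.3 and Slc1a3 at 55.0 ± 5.64 CPM per kilobase followed, with overlapping ranges. Gjb6 at 16.9 ± 2.44, Aldh1l1 at 14.7 ± 1.07, Slc7a10 at 13.0 ± 0.963 and Aqp4 at 10.8 ± 1.38 CPM per kilobase formed a lower band in which each neighbour overlapped the next. Itih3 was the lowest at 5.39 ± 0.851 CPM per kilobase, and its highest wild-type library (6.26) lay below the lowest for Aqp4 (9.26).

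Itih3 (Entrez 16426, chromosome 14 from 30908572 to 30923787 on GRCm38) encodes a heavy chain of the inter-alpha-trypsin inhibitor family, secreted proteins that can be linked covalently to hyaluronan in the extracellular matrix. Slc7a10 (Entrez 53896, chromosome 7 from 35186095 to 35201116) encodes Asc-1, a sodium-independent exchanger of small neutral amino acids such as glycine and D-serine. Of the reference genes, Gjb6 was the one whose level went most closely with Itih3 across libraries, and Gja1 the one that went most closely with Slc7a10. A promoter window of each of these 4 genes is therefore shown. Each window runs from 250 bases before to 50 bases from a start site (GRCm38.p6), 5′ to 3′ on the strand of the gene. For Gjb6 and Gja1 this site is the start of the RefSeq gene. For Itih3 and Slc7a10 it lies inside the RefSeq gene, and the Slc7a10 window lies wholly inside it. The site of the Slc1a2 window lies inside its gene as well. The windows are chr14:30923538-30923837 (minus strand) for Itih3, chr14:57133562-57133861 (minus strand) for Gjb6, chr7:35186135-35186434 (plus strand) for Slc7a10 and chr10:56377050-56377349 (plus strand) for Gja1. Capitals mark the motif TATAAA.
Itih3: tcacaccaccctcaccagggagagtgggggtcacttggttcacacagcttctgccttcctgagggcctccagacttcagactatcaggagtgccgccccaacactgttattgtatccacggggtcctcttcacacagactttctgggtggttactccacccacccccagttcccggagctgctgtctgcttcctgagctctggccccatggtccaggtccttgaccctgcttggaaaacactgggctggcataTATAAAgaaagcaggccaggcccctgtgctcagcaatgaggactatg
Gjb6: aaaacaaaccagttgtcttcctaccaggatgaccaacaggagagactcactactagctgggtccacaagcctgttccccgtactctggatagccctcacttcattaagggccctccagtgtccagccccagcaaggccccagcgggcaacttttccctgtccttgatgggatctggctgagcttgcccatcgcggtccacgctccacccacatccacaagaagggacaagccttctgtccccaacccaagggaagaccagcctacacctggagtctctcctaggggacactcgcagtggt
Slc7a10: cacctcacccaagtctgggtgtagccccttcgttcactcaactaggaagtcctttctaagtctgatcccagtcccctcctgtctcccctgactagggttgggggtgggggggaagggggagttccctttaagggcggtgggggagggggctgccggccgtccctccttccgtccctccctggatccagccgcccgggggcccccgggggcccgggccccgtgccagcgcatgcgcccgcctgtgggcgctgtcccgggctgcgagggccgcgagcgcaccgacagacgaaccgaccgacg
Gja1: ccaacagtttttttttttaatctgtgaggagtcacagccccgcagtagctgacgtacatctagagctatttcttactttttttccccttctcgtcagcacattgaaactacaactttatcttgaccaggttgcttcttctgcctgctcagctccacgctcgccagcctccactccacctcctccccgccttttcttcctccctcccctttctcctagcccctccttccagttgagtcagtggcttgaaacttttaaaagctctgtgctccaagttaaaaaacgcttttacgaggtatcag
On both strands, 3 motifs were searched, with no overlap between matches in these windows: the nuclear factor I half-site TTGGC, the SOX motif AACAAT, and TATAAA. They were found in 46.7%, 10.7% and 13.6% of all 32851 windows. Itih3 held 1 TATAAA, 3 bases past the start site of its window, and the windows of Gjb6, Slc7a10 and Gja1 held none of the 3 motifs. Of the other members with a window, Slc1a2 and Aldoc held 1 TTGGC each and Slc1a3 held 1 TATAAA, so no motif was shared by all. The window of Slc7a10 was rich in G and C at 70.7%, above 91.4% of all windows (median 52.7%). Those of Itih3 at 57.0% and Gjb6 at 57.3% lay between the median and the upper quartile of 61.7%, and that of Gja1 was at 47.7%.

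The first question was how the level of each member differed between the genotypes. All 8 reference genes had a higher mean in Fmr1-/y than in wild-type libraries, where 51.4% of all 17823 genes tested had a log2 fold change above 0. The same direction in Slc7a10 and Itih3 belongs to their choice. By the quasi-likelihood test of edgeR, 0 of the 8 reference genes had an adjusted p under 0.05, where 0.0224% of all genes did in either direction. Of the 8, 5 had an unadjusted p under 0.05 with a higher level, against 4.29% of all genes in that direction. DESeq2 likewise called 0 of the 8, and 6 had an unadjusted p under 0.05 with a higher level there, against 4.4% of all genes. With genotype means removed, the 8 genes moved together across libraries, at a median Pearson's r of 0.70 over their 28 pairs. Their counts are therefore not independent results. The median log2 fold change of the 8 was 0.24 (range 0.11 to 0.35), beside 0.00 over all genes tested. Without Fmr1-/y replicate 1 all 8 stayed above 0, from 0.03 for Gja1 to 0.27 for Gjb6 with a median of 0.16, and 2 had an unadjusted p under 0.05, against 3.12% of all genes in that direction.

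**Figure D1:**
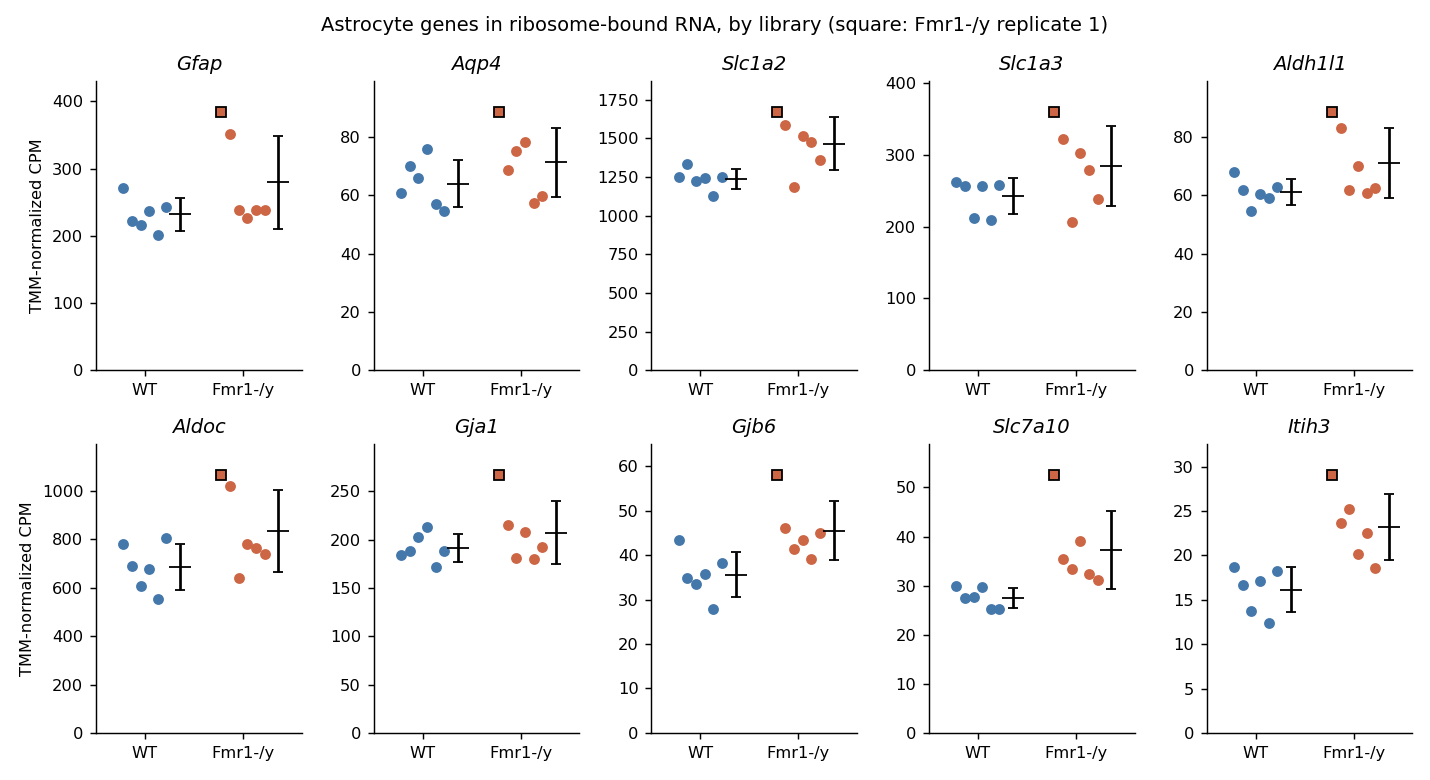
Level of each member in every library, in TMM-normalized CPM on axes that start at 0, for 6 wild-type (blue) and 6 Fmr1-/y (orange) libraries, with the mean and SD beside the points. The square is Fmr1-/y replicate 1, the highest Fmr1-/y library in all 10 panels, and only for Slc7a10 do all Fmr1-/y points lie above all wild-type points.

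Of the members, Slc1a2 had the most reads, and it and Slc1a3 take glutamate up into astrocytes. Slc1a2 (GLT-1, Entrez 20511, chromosome 2 from 102658239 to 102790784) ran from 1130 to 1334 CPM (median 1244) in wild-type libraries and from 1188 to 1670 CPM (median 1495) in Fmr1-/y libraries. Of the 6 Fmr1-/y libraries, 5 lay above every wild-type library, and replicate 3 lay inside the wild-type range. Its log2 fold change was 0.24 ± 0.07 (SE), with an adjusted p of 0.361 in edgeR. Slc1a3 (GLAST, Entrez 20512, chromosome 15 from 8634124 to 8710807) ran from 208.5 to 262.1 CPM in wild-type and from 205.7 to 359.4 CPM in Fmr1-/y libraries, with medians of 256.2 and 290.5. Here the lowest library of all was an Fmr1-/y one, again replicate 3, and the log2 fold change was 0.23 ± 0.11. The neuronal transporter Slc1a1, a marker of the tagged cells, had a log2 fold change of -0.05 ± 0.06. Of the 5 other members of the Slc1 family, 4 had a lower and 1 a higher mean, and none passed at an unadjusted p of 0.05.

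The connexins join astrocytes to each other. Gja1 (connexin 43, Entrez 14609, chromosome 10 from 56377300 to 56390419) ran from 171.6 to 212.7 CPM (median 188.5) in wild-type and from 179.5 to 267.0 CPM (median 200.01) in Fmr1-/y libraries. The groups overlapped in 4 of the 6 Fmr1-/y libraries, and the log2 fold change of 0.11 ± 0.09 was the smallest of the 10. Gjb6 (connexin 30, Entrez 14623, chromosome 14 from 57123301 to 57133611) ran from 28.0 to 43.5 CPM (median 35.3) in wild-type and from 39.2 to 58.1 CPM (median 44.2) in Fmr1-/y libraries. Of the Fmr1-/y libraries, 3 exceeded every wild-type library, and the log2 fold change of 0.35 ± 0.10 was the highest among the reference genes (adjusted p of 0.342 in edgeR). Both connexins are astrocytic, and their fold changes stood at opposite ends of the reference set. Of the 9 other connexins, 7 had a lower mean and 2 a higher one with an unadjusted p under 0.05, against 4.29% of all genes in that direction. These were Gjb2 (connexin 26) at 0.49 ± 0.16 and Gja4 (connexin 37, of vessels) at 0.65 ± 0.19 on the log2 scale, neither past the adjusted threshold.

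Gfap, the intermediate filament of the astrocyte (Entrez 14580, chromosome 11 from 102887336 to 102897200), ran from 201.7 to 270.6 CPM (median 229.5) in wild-type and from 227.0 to 384.1 CPM (median 238.6) in Fmr1-/y libraries. Its Fmr1-/y libraries fell into 4 within the wild-type range and 2, replicates 1 and 2, well above it. The log2 fold change was 0.27 ± 0.12 with all libraries and 0.16 without replicate 1. Aldoc (Entrez 11676, chromosome 11 from 78323073 to 78327781) showed the same 2 high libraries, with 551.7 to 803.5 CPM (median 684.5) in wild-type and 641 to 1067 CPM (median 772.7) in Fmr1-/y libraries. Its log2 fold change was 0.29 ± 0.12. Aldh1l1, a folate enzyme widely used to mark astrocytes (Entrez 107747, chromosome 6 from 90550768 to 90599171), ran from 54.5 to 68.1 CPM (median 61.2) in wild-type and from 60.7 to 88.6 CPM (median 66.2) in Fmr1-/y libraries. Of the 6 Fmr1-/y libraries, 3 were above all wild-type ones, and the log2 fold change was 0.22 ± 0.09. The related genes that other cells use were closer to 0, at -0.01 ± 0.15 for the filament gene Vim and -0.03 ± 0.07 for the general aldolase Aldoa.

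Aqp4, the water channel of the endfoot (Entrez 11829), ran from 54.7 to 75.9 CPM (median 63.3) in wild-type and from 57.3 to 88.6 CPM (median 72.0) in Fmr1-/y libraries. The groups overlapped in 4 of the 6 Fmr1-/y libraries, and the log2 fold change was 0.16 ± 0.11. The 5 genes of the dystrophin complex that anchors it ranged from -0.10 to 0.07, none with an unadjusted p under 0.05.

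Slc7a10, the amino acid exchanger, ran from 25.2 to 29.9 CPM (median 27.6) in wild-type libraries and from 31.2 to 52.6 CPM (median 34.4) in Fmr1-/y libraries. Every Fmr1-/y library was above every wild-type library, which 0.213% of all genes tested showed in that direction. Since the gene was chosen from this contrast, nothing is read from that share. The mean was 135.6% of wild type, a log2 fold change of 0.44 ± 0.11, and 0.32 ± 0.08 without replicate 1. Itih3 ran from 12.3 to 18.7 CPM (median 16.9) in wild-type and from 18.5 to 29.1 CPM (median 23.1) in Fmr1-/y libraries. In Fmr1-/y, 5 libraries were above the wild-type range and replicate 6 lay just inside it. The mean was 143.8% of wild type, a log2 fold change of 0.52 ± 0.12, and 0.45 ± 0.12 without replicate 1. These 2 values were the highest of the 10 members, by choice, and the nearest reference gene was Gjb6.

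Genes that work with Slc7a10 and Itih3 were set beside them. Over all genes tested, 51.4% had a log2 fold change above 0, and 4.29% had an unadjusted p under 0.05 with a higher level. Of 14 genes of serine and glycine synthesis and amino acid exchange, 13 were tested, 10 had a higher mean, and 2 had an unadjusted p under 0.05. Phgdh, the first enzyme of serine synthesis and itself astrocytic, was at 0.37 ± 0.12 on the log2 scale, from 56.5 ± 6.73 CPM to 73.2 ± 15.3 CPM (SD, n = 6 each). Slc3a2, the heavy subunit that carries Slc7a10 and its relatives to the membrane, was at 0.17 ± 0.06. Srr, which makes D-serine, was at -0.05 ± 0.06. Of 12 genes of hyaluronan and its heavy chains, 10 were tested, 4 had a higher mean, and Itih2 alone had an unadjusted p under 0.05, at 0.60 ± 0.25. Itih5 was at 0.16 ± 0.12. The 2 not tested, Itih1 and Ambp, had 1 read each in all libraries together. No gene of either list passed the adjusted threshold in edgeR or DESeq2. Without Fmr1-/y replicate 1, 2 of 13 genes of the first list had an unadjusted p under 0.05, all higher. Of the hyaluronan genes, 0 of the 9 then tested did, against 3.12% of all genes with a higher level.

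Beside the members stood a wider list of 30 other astrocyte genes, which hold channels, receptors and enzymes of the same cells. Of the 30, 29 had a higher mean in Fmr1-/y libraries, where 51.4% of all genes tested had a log2 fold change above 0. In edgeR 18 had an unadjusted p under 0.05, all higher, against 4.29% of all genes in that direction. The 30 genes were read in the same libraries, so these counts are not taken as independent results. The median log2 fold change of the 30 was 0.22. None of them passed the adjusted threshold in edgeR. DESeq2 called 1, with a higher level, against 0.174% of all genes in that direction. Among the highest were Chrdl1 (a secreted BMP antagonist) at 0.58 ± 0.28 and Etnppl (a phospholyase) at 0.39 ± 0.12. The lowest were Bmpr1b at 0.00 ± 0.12, Ednrb (the endothelin receptor) at 0.05 ± 0.15, and Mlc1 at 0.08 ± 0.08. Without Fmr1-/y replicate 1, 27 of 30 had a higher mean, and the median was 0.17. Of the 30, 9 then had an unadjusted p under 0.05, all higher, against 3.12% of all genes in that direction.

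**Figure D2:**
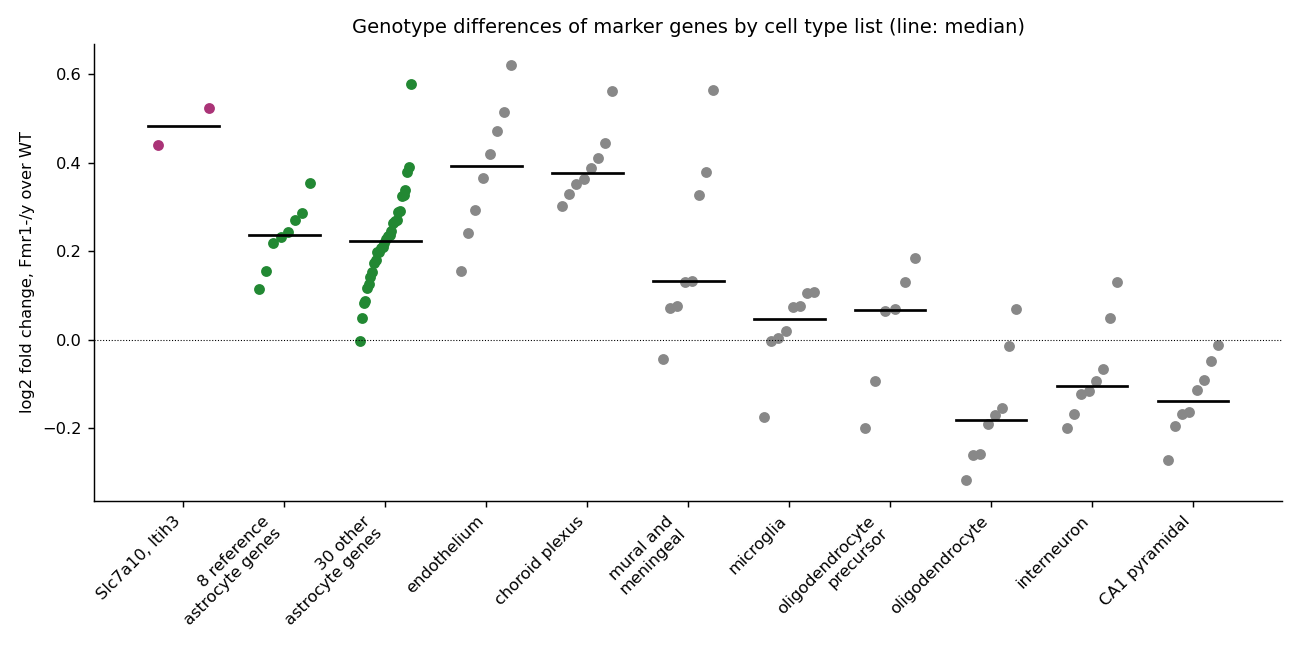
Log2 fold change of Fmr1-/y over wild type for each gene of the cell type lists, with the median of each list as a line. The medians of the reference genes (0.24) and of the 30 other astrocyte genes (0.22) lie above 0, those of the endothelial (0.39) and choroid plexus (0.38) lists higher still, and that of the CA1 pyramidal list (-0.14) below 0.

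Markers of other cell types were read in the same libraries. Over all 17823 genes tested, 51.4% had a log2 fold change above 0. An unadjusted p under 0.05 in edgeR was seen for 4.29% with a higher level and for 654 genes with a lower one. All 8 endothelial markers had a higher mean, 5 with an unadjusted p under 0.05, and their sum ran from 47.6 to 67.9 CPM in wild-type and from 63.3 to 88.9 CPM in Fmr1-/y libraries. All 8 choroid plexus markers had a higher mean, 3 with an unadjusted p under 0.05, and their sum ran from 6456 to 11970 CPM and from 8370 to 17660 CPM. Those 2 lists had medians of 0.39 and 0.38, above that of the reference genes, and of 0.35 and 0.24 without Fmr1-/y replicate 1. Without that library 5 endothelial and 1 choroid plexus markers had an unadjusted p under 0.05 with a higher level, against 3.12% of all genes. Markers of a list were read in the same libraries and are not independent results. Of the mural and meningeal markers, 7 of 8 had a higher mean (median 0.13), and 7 of 8 oligodendrocyte markers a lower one (median -0.18). The 8 CA1 pyramidal markers all had a lower mean, 3 with an unadjusted p under 0.05 (median -0.14), and their sum ran from 8689 to 10780 CPM in wild-type and from 8354 to 9970 CPM in Fmr1-/y libraries. The 6 oligodendrocyte precursor, 8 microglial and 8 interneuron markers had medians of 0.07, 0.05 and -0.10. No gene of these lists passed in edgeR, and DESeq2 called 2, the endothelial Esam and the collagen Col1a1 of the mural and meningeal list. Both were higher in Fmr1-/y libraries, where DESeq2 called 0.174% of all genes in that direction. The part of these other cells in the differences of the members was not tested.

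The members were then set relative to the wider astrocyte list, library by library, as the log2 level of the gene minus the mean log2 level of the 30 genes. On this scale the 8 reference genes differed between the genotypes by -0.11 (Gja1) to 0.14 (Gjb6), on both sides of 0. Slc7a10 stood at -1.28 ± 0.09 in wild-type and -1.08 ± 0.16 in Fmr1-/y libraries (SD, n = 6 each), a difference of 0.21. Itih3 stood at -2.06 ± 0.15 and -1.75 ± 0.18, a difference of 0.31. For each of the 2 genes, 5 of 6 Fmr1-/y libraries were above every wild-type library. Both genes were chosen from the genotype contrast, so nothing is read from this separation or from the size of the differences. Without Fmr1-/y replicate 1 the differences were 0.16 for Slc7a10 and 0.30 for Itih3. With the same list as a covariate in the edgeR fit, 2 of the 8 reference genes kept a log2 fold change above 0. These were Slc1a2 at 0.09 ± 0.07 and Gjb6 at 0.14 ± 0.10, while the other 6 ran from -0.09 to 0.00. Slc7a10 was at 0.19 ± 0.10 and Itih3 at 0.31 ± 0.12, and their place above the reference genes belongs to their choice. The mean log2 level of the list was itself 6.06 in wild-type and 6.28 in Fmr1-/y libraries, so the covariate and the genotype are not independent.

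**Figure D3:**
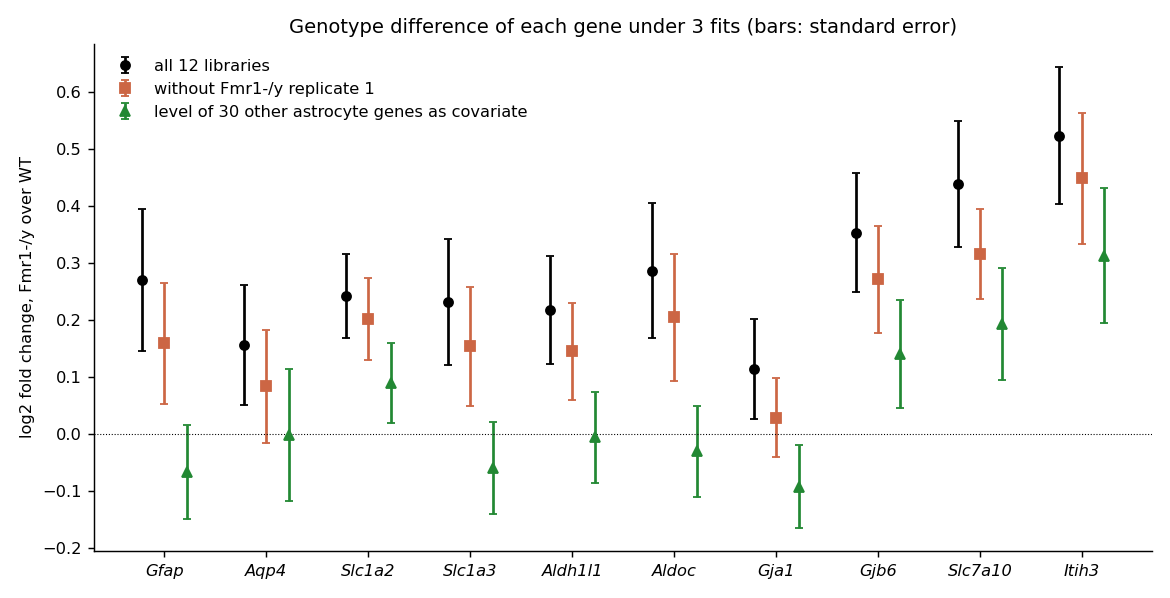
Log2 fold change of Fmr1-/y over wild type with its standard error for the 10 members, with all 12 libraries (circles), without Fmr1-/y replicate 1 (squares), and with the mean log2 level of the 30 other astrocyte genes as a covariate (triangles). With the covariate 6 reference genes lie at or below 0, and Slc7a10 and Itih3, which were chosen from this contrast, lie at 0.19 and 0.31.

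The second question was whether Itih3 and Slc7a10 went along with the other astrocyte genes from library to library. To keep the genotype difference out, the mean of each genotype was subtracted, and p-values come from 100000 permutations of the libraries within genotypes, two-sided, with Benjamini-Hochberg adjustment over 18 relations, each of the 2 genes against 9 cell type lists. Against the mean of the 30 other astrocyte genes, Itih3 had a Pearson's r of 0.71 over 12 libraries (permutation p = 0.0128, adjusted 0.0513) and a Spearman's rho of 0.71 (p = 0.0138, adjusted 0.0827). Slc7a10 had an r of 0.79 (permutation p = 0.0102, adjusted 0.0513) and a rho of 0.76 (p = 0.00887, adjusted 0.0798). Both lay just outside the adjusted threshold, and with DESeq2's size factors in place of TMM both lay just inside it (r of 0.72 and 0.80, adjusted permutation p = 0.0476).

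Both relations rested in part on Fmr1-/y replicate 1. It lay 0.31 above its genotype mean for the list, 0.34 for Itih3 and 0.52 for Slc7a10, on the log2 scale. Without it, r was 0.58 for Itih3 (permutation p = 0.0697) and 0.58 for Slc7a10 (permutation p = 0.0902), so that neither r passed before adjustment. The rho was 0.63 for Itih3 (permutation p = 0.0547) and 0.69 for Slc7a10 (permutation p = 0.031, adjusted 0.279). Without it and wild-type replicate 5, the 2 libraries farthest from the median of the list, r was 0.46 and 0.60. Within wild-type libraries alone, Itih3 had an r of 0.90 (n = 6, exact permutation p = 0.0125, adjusted 0.05 over 4 relations) and Slc7a10 an r of 0.63 (exact permutation p = 0.175). Within Fmr1-/y libraries the values were 0.65 for Itih3 (exact permutation p = 0.16) and 0.84 for Slc7a10 (exact permutation p = 0.0347, adjusted 0.0694). Without the 2 libraries of each genotype farthest out on the list, r was 0.95 for Itih3 and 0.02 for Slc7a10 in wild-type libraries. In Fmr1-/y libraries it was -0.17 for Itih3 and 0.78 for Slc7a10. Few libraries remain in each case, over a narrower range of the list, so what the relations rest on cannot be told from these values. By rho none of the 4 passed after adjustment, the lowest adjusted p being 0.117 (exact permutation). Whether r differed between the genotypes was not tested.

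**Figure D4:**
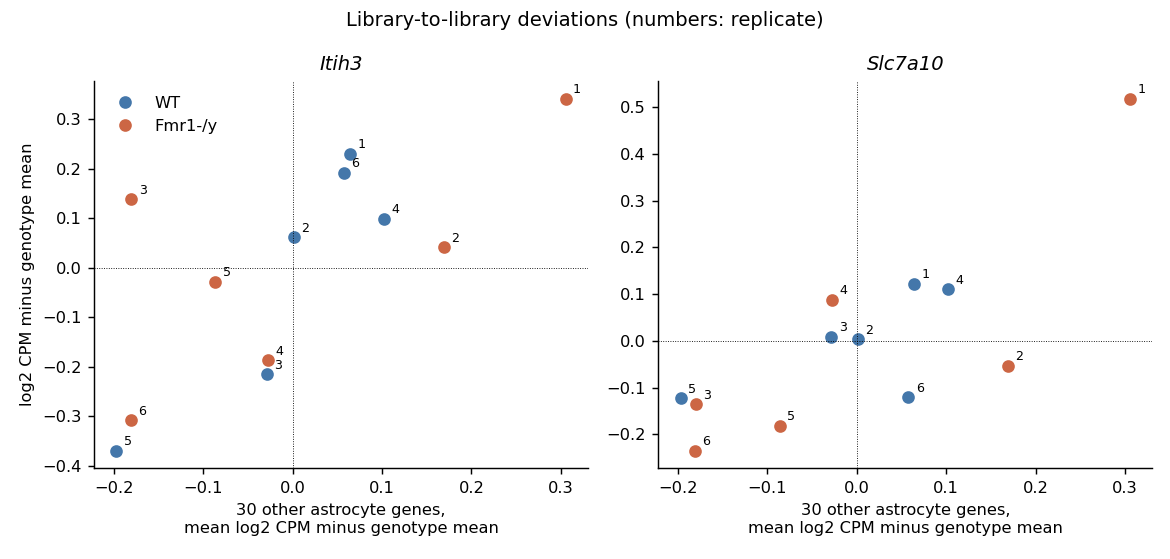
Deviation of Itih3 (left) and Slc7a10 (right) from the genotype mean in log2 CPM against the deviation of the mean log2 CPM of 30 other astrocyte genes, one point per library with its replicate number. Both clouds slope upward (r 0.71 and 0.79), and Fmr1-/y replicate 1 is the point at the upper right in both panels.

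Of the reference genes, 6 had a higher r with the list than both of these genes. The 8 ran from 0.54 for Aqp4 and 0.79 for Gjb6 to 0.90 for Gfap and 0.91 for Aldoc, and 7 of the 8 passed an adjusted threshold of 0.05 over 8 relations. Of 13768 genes with a mean of at least 1 CPM, 3.28% had an r with the list at or above that of Itih3, and 1.49% at or above that of Slc7a10. The share was 0.189% for Aldoc and 9.61% for Aqp4. The differences between these correlations were not tested.

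Other lists went along with the 2 genes about as closely. Slc7a10 had its highest r, 0.89, with the mural and meningeal markers (permutation p = 0.00246, adjusted 0.0443), the only one of the 18 relations past the threshold by r, which it missed by rho (0.81, adjusted permutation p = 0.067), and an r of 0.77 with the microglial markers (adjusted permutation p = 0.0513). Itih3 had an r of 0.73 with the endothelial markers (adjusted permutation p = 0.0513). With the choroid plexus markers, r was -0.05 for Itih3 and 0.62 for Slc7a10. With the CA1 pyramidal markers it was 0.12 and -0.28, and with the oligodendrocyte markers 0.04 and 0.26. The lists come from the same libraries and share Fmr1-/y replicate 1. Without the 2 libraries farthest out on the list, r was 0.77 for Slc7a10 with the mural and meningeal markers and 0.56 for Itih3 with the endothelial markers.

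Gene against gene, all 17 pairs of Itih3 or Slc7a10 with a reference gene or with each other had a positive r, from 0.36 to 0.87 with a median of 0.67. After adjustment over the 17, 4 passed. Itih3 went with Gjb6 (r = 0.75, adjusted permutation p = 0.0422) and with Gfap (r = 0.71, adjusted permutation p = 0.0422). Slc7a10 went with Gja1 (r = 0.87, adjusted permutation p = 0.0422) and with Aqp4 (r = 0.78, adjusted permutation p = 0.0396). Itih3 was least like Slc1a2 (r = 0.36) and Aqp4 (r = 0.40), and Slc7a10 least like Aldoc (r = 0.58). By Spearman's rho none of the 17 passed, the lowest adjusted permutation p being 0.0561. Without Fmr1-/y replicate 1 all 17 stayed positive, from 0.09 to 0.74, and 0 passed. The count was also 0 without Fmr1-/y replicate 5, wild-type replicate 4 or wild-type replicate 5, and 10 without Fmr1-/y replicate 3.

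**Figure D5:**
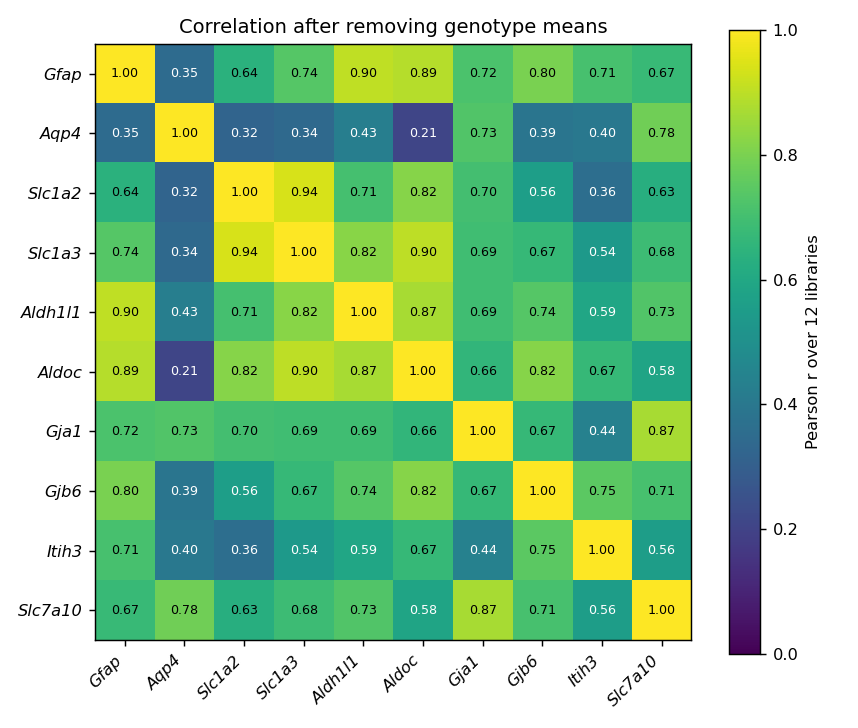
Pearson's r between all pairs of the 10 members over 12 libraries after the mean of each genotype was removed, with the value in each cell and a color scale from 0 to 1. The pairs among the 8 reference genes run from 0.21 to 0.94, Aqp4 has low values except with Gja1 (0.73) and Slc7a10 (0.78), and Itih3 with Slc7a10 is at 0.56.

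Itih3 and Slc7a10 had an r of 0.56 with each other (adjusted permutation p = 0.0974), and their highest values were with different reference genes. The glutamate transporters went together at 0.94, and Gfap, Aldh1l1 and Aldoc at 0.87 to 0.90. These were not separate sets, since Aldoc was also at 0.90 with Slc1a3 and 0.82 with Slc1a2. Slc7a10 lay with Gja1 and Aqp4, which were themselves at 0.73, and Itih3 with Gjb6 and Gfap, themselves at 0.80. The 28 pairs among the reference genes had a median of 0.70.

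Among the 13768 genes, those most like Itih3 in these deviations were Ggt1 (gamma-glutamyltransferase, r = 0.93), Mcm4 (0.89), Itga8 (0.89), Bnip3l (0.89), Slc22a4 (0.88), Atp13a4 (0.87), Srebf1 (0.87) and Dnase1l1 (0.85). Among those most like Slc7a10 were Fads2 (a fatty acid desaturase, r = 0.97), Cp (ceruloplasmin, 0.92), Psd2 (0.92), Tpm4 (0.91), Maob (monoamine oxidase B, 0.91) and Acadl (0.91). These are descriptions over 12 libraries, with no test. The first reference gene in the ranking was Gjb6 at place 76 for Itih3 and Gja1 at place 38 for Slc7a10.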

How the data were processed

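Libraries were stranded RNA-seq of RNA bound to HA-tagged ribosomes. The authors aligned reads to mm10 with TopHat2 2.1.1 (Bowtie2 2.2.8), discarded alignments with more than 3 mismatches, counted antisense-mapping reads per gene (the strand of this kit) with HTSeq 0.6.1p1 in union mode, and deposited raw counts for 24079 genes without normalization. They tested genes with at least 15 reads in total with DESeq2.

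The same filter left 17823 genes here. Depth was 39400980 to 65565479 reads per library. Genotypes were compared with edgeR 4.0.16 in R 4.3.3 (TMM, quasi-likelihood test, no block or covariate, Benjamini-Hochberg adjustment over all genes), and the script was tested on simulated counts with known changes. The lane of each library is not given in the sources used here, so no batch was examined. DESeq2 1.42.0, limma 3.58.1, other scalings and filters, a covariate, a replicate block and each library left out were the alternatives. Correlations used log2 CPM with a prior count of 2 after subtraction of genotype means, with scipy 1.17.1 and numpy 2.4.6 in Python 3.11.15. CPM per kilobase used the union of exons of coding transcripts (GENCODE). The members and all gene lists were chosen with earlier results of these data known. The genes named are the 10 members, the 3 highest and 3 lowest of the wider astrocyte list, genes of the role lists with an unadjusted p under 0.05 and a few fixed partners, and the 8 genes most like Itih3 and Slc7a10. A few genes that this rule takes in are not reported here. By the paper's methods, the replicates are biological, each a pool of mice.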

Additional observations from a re-analysis of the deposited data

Results flagged for a closer look

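Fmr1-/y replicate 1 stood far from the other 5 Fmr1-/y libraries for 2 members. For Gjb6 it was at 58.1 CPM, the others at 39.2 to 46.1 CPM, and its gap to the nearest was 0.638 of the range of the group. For Slc7a10 it was at 52.6 CPM, the others at 31.2 to 39.02 CPM, with a gap of 0.634 of the range. Both exceed Dixon's critical value for 6 samples. Of 40 groups of 6 libraries examined (10 members and 10 list means in 2 genotypes), 2 exceeded it, and chance gives about 2.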

How the results depend on the processing

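Of 200 log2 fold changes of single members under 20 alternatives, 192 kept their direction and their side of the threshold. DESeq2's Wald test called 84 genes in all against 4 in edgeR. The values of Itih3 and Slc7a10 were on the other side of the threshold there, and since both were chosen from this contrast nothing is read from that. With the wider astrocyte list as covariate, 6 reference genes turned below 0, at -0.067 for Gfap, -0.0016 for Aqp4, -0.060 for Slc1a3, -0.0064 for Aldh1l1, -0.031 for Aldoc and -0.093 for Gja1, so that 4 of 10 members and 14 of the 30 other astrocyte genes were above 0, and 2 genes were called in all. Leaving out each library gave 2 called genes (without Fmr1-/y replicate 1, 4, 5 or 6 or wild-type replicate 4, 5 or 6) to 6, 10 of 10 members above 0 and 27 to 30 of the 30. The correlation with the wider list ran from 0.58 (without Fmr1-/y replicate 1) to 0.87 for Itih3 and from 0.58 (without the same library) to 0.89 for Slc7a10. It passed the threshold for Itih3 at 0.72 with DESeq2's size factors and 0.73 with library totals, and for Slc7a10 at 0.80 and 0.84, and also without Fmr1-/y replicate 3 for Itih3 and without Fmr1-/y replicate 2 or 4 or wild-type replicate 6 for Slc7a10. The pairs past the threshold ran from 0 to 10 with 1 library left out, being 0 without Fmr1-/y replicate 1 or 5 or wild-type replicate 4 or 5, 1 without wild-type replicate 2, 2 without wild-type replicate 1 or 3, 7 without Fmr1-/y replicate 4 and 10 without Fmr1-/y replicate 3. The causes were not tested.

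Whether the replicate numbers that the genotypes share pair the libraries was not settled. In their deviations over genes with a mean log2 CPM over 5, same-numbered libraries correlated at -0.44 to 0.60. In order of number, the values were 0.38, -0.44, 0.44, 0.60, -0.01 and -0.03, and libraries of different numbers were not compared. A block for that number left 4 genes called, r with the wider list was 0.48 for Itih3 and 0.67 for Slc7a10, and 0 of 17 pairs passed. The main limits are 6 libraries a genotype, 1 library that is high for every member, and no RNA from before the pulldown. A further limit is wild-type replicate 5, the lowest wild-type library for 8 of 10 members. Without it the log2 fold changes of the 10 members ran from 0.08 (Gja1) to 0.46 (Itih3), against 0.11 to 0.52 with all libraries. Depth was no limit for the members, whose lowest count was 487 reads.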
